A study of Mus musculus with 6 samples.

Results

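The cells described are *Clec3b*-positive lung cells of the fibroblast gate in which no *Pi16* transcript was counted. A barcode was kept at 500 or more genes, 1000 or more unique molecular identifiers (UMIs, each standing for 1 captured transcript) and under 15% mitochondrial UMIs. The gate asked for at least 2 of *Col1a1*, *Col1a2*, *Pdgfra* and *Dcn* and for no UMI of *Ptprc*, *Cdh5*, *Lamp3*, *Foxj1* or *Msln*. Members had at least 3 *Clec3b* UMIs, at least as many *Clec3b* as *Inmt* UMIs, and a *Pi16* count of 0. The members were thus chosen by their measured counts of these genes, whose values are given below as a description, with no test of any single one. The rule found 619 cells among 12450 gated cells (4.97%), 44096 kept barcodes (1.40%) and 88578 deposited barcodes.

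Single-cell RNA sequencing was done on magnetically enriched CD45-negative lung cells of C57BL/6 mice (C57BL/6J background in the study's methods) aged 10 to 12 weeks. Tamoxifen had been given in 4 doses, and lungs were taken 2 weeks later. Control lungs gave 4 libraries and Zip8AEC2 lungs 2. Zip8AEC2 mice carried *SFTPC-CreER*, the *Rosa26-tdTomato* reporter and floxed *Slc39a8*, the gene of the zinc importer ZIP8. Controls were littermates, whose alleles were not named for these libraries (for organoid cultures of the same line, the study's methods give control mice with both transgenes and without floxed *Slc39a8*), and the number of mice per library was not given in the sources used here. The deletion was driven in type 2 alveolar epithelial cells (AEC2s), so fibroblasts of both groups were not its target. The comparison asks how cells beside the targeted epithelium differed between genotypes. Libraries held 105774150, 114018446, 118771907 and 93852253 UMIs in controls and 107957330 and 103337822 in Zip8AEC2 lungs. Wherever 6 values follow each other below, they run from control library 1 to 4 and then Zip8AEC2 library 1 and 2. Members numbered 40, 288, 73, 146, 40 and 32.

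Adventitial fibroblasts sit in the connective tissue cuffs around large vessels and airways, where they secrete collagen, small proteoglycans and elastic fibre components and send cues to immune cells. They are usually recognised by *Pi16*, *Ly6a*, *Cd248* and *Dpp4*. Alveolar fibroblasts, marked by *Inmt*, *Npnt* and *Tcf21*, lie in the thin alveolar walls next to AEC2s. *Clec3b* encodes tetranectin, a secreted plasminogen-binding lectin that fibroblasts of several sites make. In mm10, *Clec3b* lies at chr9:123150946-123157432 (plus strand), *Pi16* at chr17:29317680-29330593 (plus strand) and *Inmt* at chr6:55170626-55175043 (minus strand).

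The 619 cells were not 1 kind of cell. The 4 fixed markers *Clec3b*, *Dcn*, *Serping1* (the inhibitor of complement C1) and *Gsn* (the actin-severing protein gelsolin) were all detected, the first 2 being part of the rule. The most abundant gene over all members was nevertheless *Scgb1a1*, the secretoglobin of airway club cells, at 165561 CPM (counts of a gene scaled to a common total of UMIs per library; mean of 6 libraries). After these values were seen, the members were divided by 2 criteria. *Scgb1a1* took over 20% of UMIs in 195 cells (*Scgb1a1*-rich cells). At least 2 of the mesothelial genes *Upk3b*, *Wt1*, *Krt19*, *Calb2*, *Lrrn4* and *Upk1b* had a UMI in 111 others (mesothelial-marker cells). The other 313 are called remaining cells. The label of adventitial fibroblasts therefore did not hold for all members, and the cells are named by their rule.

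The kinds were spread unevenly over the libraries. *Scgb1a1*-rich cells numbered 12, 138, 40, 4, 1 and 0, so 190 of 195 came from control libraries 1 to 3. The trait was not confined to members. Of the 12450 gated cells, 2489 had over 20% of UMIs from *Scgb1a1*, or 10.8%, 30.8%, 35.3%, 2.90%, 9.35% and 4.85% by library. Control libraries 1 to 3 were again the highest, but gated cells of both Zip8AEC2 libraries held such cells and exceeded control library 4. Mesothelial-marker cells numbered 2, 19, 3, 74, 11 and 2, with 74 of 111 in control library 4. The remaining cells numbered 26, 131, 30, 68, 28 and 30. As a share of members, they made up 41.1% in control library 3 and 93.8% in Zip8AEC2 library 2.

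**Figure D1:**
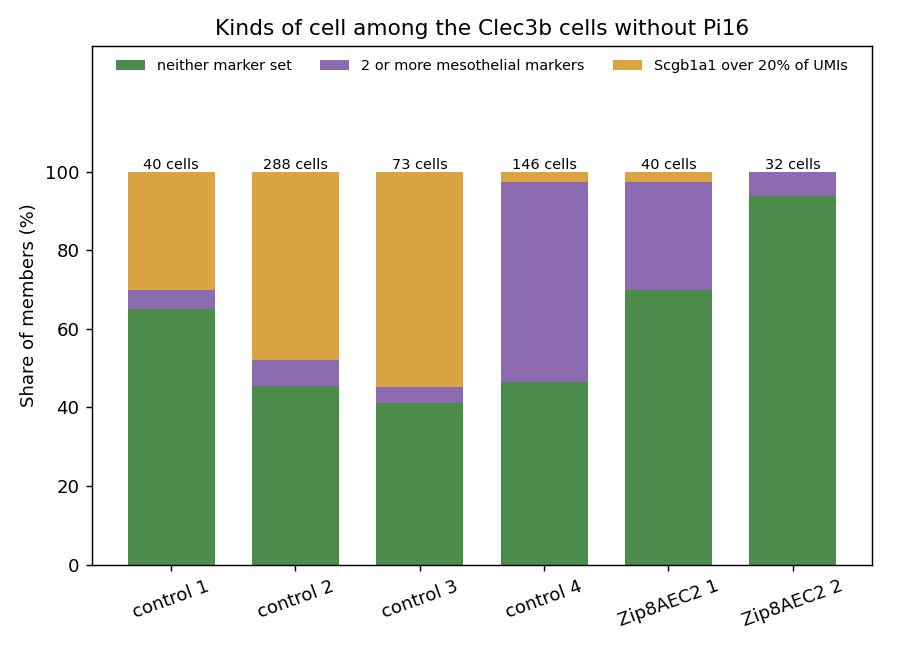
Stacked bars of the share of members (percent, y axis) in each of the 6 libraries (x axis) that were *Scgb1a1*-rich, mesothelial-marker or remaining cells, with the number of members above each bar. *Scgb1a1*-rich cells take 47.9% and 54.8% in control libraries 2 and 3, mesothelial-marker cells 50.7% in control library 4, and remaining cells 93.8% in Zip8AEC2 library 2.

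The division by *Scgb1a1* fell in a gap. The gene took under 5% of UMIs in 407 members, 5 to 20% in 17 and over 20% in 195. It made up 37.5%, 23.05%, 35.6%, 1.19%, 1.07% and 0.871% of the summed UMIs of members. Control libraries 1 to 3 were thus far above the other libraries, and in remaining cells the share was 0.831 to 1.69% in every library. The sums of members also held single very deep barcodes. The largest member held 91946 of 351444 UMIs in control library 1, 77720 of 1356416 in control library 2 and 95852 of 461127 in control library 3. In the other libraries the largest member held 17454 to 21837 UMIs. *Scgb1a1* also took 1.07 to 3.23% of UMIs of cells in an endothelial gate, which should lack it. In *Scgb1a1*-rich members the club-cell genes *Scgb3a2* and *Cyp2f2* stood at 10940 and 7071 summed UMIs beside 768 for *Clec3b*, 47.2% of these cells had exactly 3 *Clec3b* UMIs, and *Pdgfra*, the receptor for platelet-derived growth factor on fibroblasts, was detected in 14.9% of them against 60.7% of remaining cells.

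Many barcode sequences occurred in more than 1 library, 51016 of the 88578 deposited ones, or 61.3%, 62.6%, 72.6%, 33.8%, 62.6% and 38.9% per library. Among members, 223 had a barcode that another library also held, and in 188 the other library held more UMIs under it. Of the 195 *Scgb1a1*-rich members 175 (89.7%) were such smaller copies. The larger copy had a median of 21.1 times as many UMIs and was *Scgb1a1*-rich itself in 150 of the 175. Only 9 of the 313 remaining cells (2.88%) and 4 of the 111 mesothelial-marker cells (3.60%) were smaller copies, beside 5.57% of *Pi16*-positive *Clec3b* cells. Results are therefore given for all members and for the remaining cells.

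Mesothelial-marker members were picked for UMIs of genes of the mesothelium, the covering layer of the pleura, so the detection of these genes describes the criterion. *Upk3b*, the uroplakin of mesothelium, was detected in 97.3% of them, the membrane protein gene *Lrrn4* in 91.0%, the transcription factor gene *Wt1* in 87.4% and the keratin gene *Krt19* in 86.5%. In *Pi16*-positive *Clec3b* cells, of a similar median depth (8345 UMIs), the shares were 3.44%, 1.21%, 2.79% and 8.91%. *Msln*, the gene of mesothelin, was at 0 by the gate, and no UMI of *Calb2* was counted in any member. *Inmt* was at 0 in 80.2% of these cells against 10.2% of remaining ones. *Dcn* (decorin), the insulin-like growth factor binding proteins *Igfbp5* and *Igfbp6*, and complement *C3* were abundant in them, with 17524, 4342, 3741 and 5683 UMIs. Their median depth was 8430 UMIs per cell, above the 2602 of *Scgb1a1*-rich and 2671 of remaining cells.

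The thresholds cut through a continuum. *Clec3b* stood at 3 UMIs in 144 members, while 242 otherwise eligible cells with 2 UMIs fell just outside. A further 294 members had 4 to 9 *Clec3b* UMIs and 181 had 10 or more, up to 143. *Clec3b* equalled *Inmt* in 59 members, and 50 cells were left out because *Inmt* was 1 UMI higher. On the *Pi16* side, 416 of the 4308 *Clec3b* cells with *Pi16* had 1 UMI of it and 3616 had 3 or more.

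A count of 0 for *Pi16* was most frequent in shallow cells. Members had a median of 3128 UMIs, *Pi16*-positive *Clec3b* cells 8345 and *Inmt* fibroblasts (gated cells with at least 3 *Inmt* UMIs, more *Inmt* than *Clec3b* and no *Pi16*) 7554. *Pi16* was at 0 in 32.9% of *Clec3b* cells with 1000 to 2000 UMIs (171 of 519) and in 6.02% of those with 8000 or more (143 of 2375). With both other kinds left out the shares were 27.8% and 3.16%. Over all libraries the share thus fell with depth. In Zip8AEC2 library 1 it did not, with 22.2%, 16.1%, 15.2% and 19.8% in the 4 ranges from shallow to deep and 12.5%, 13.3%, 11.4% and 14.8% with both other kinds left out. Control library 4 had 16.5% at 8000 or more UMIs, but 4.05% with both other kinds left out. In all, 71 remaining cells with 8000 or more UMIs still had no *Pi16*. These deep cells numbered 2, 31, 5, 10, 13 and 10. *Pi16*-positive cells of that depth had a median of 28 *Pi16* UMIs, and 2.02% of them had 1.

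**Figure D2:**
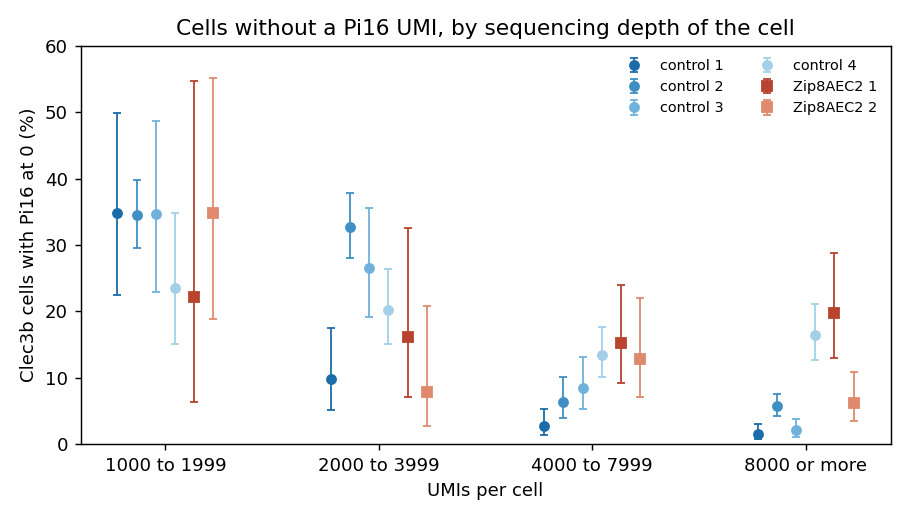
Percent of *Clec3b* cells with a *Pi16* count of 0 (y axis) in 4 ranges of UMIs per cell (x axis); each point is 1 library and bars are 95% Wilson intervals. Shares at 1000 to 2000 UMIs are 22.2 to 34.9%, and at 8000 or more 1.53 to 6.25% in 4 libraries but 16.5% in control library 4 and 19.8% in Zip8AEC2 library 1. Without *Scgb1a1*-rich and mesothelial-marker cells (not drawn), the latter values are 4.05% and 14.8%.

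Remaining cells held matrix genes among their most abundant transcripts. Their most abundant genes were *Mgp* (matrix Gla protein, an inhibitor of calcification) at 32019 CPM, *Gsn* at 26331, *Malat1*, *Gm42418* and *Dcn* at 13149 (means of 6 libraries). Counts from the 3′ end of transcripts do not grow with gene length, so these levels can be set side by side. The collagen genes *Col1a2* and *Col3a1* were among the 20 most abundant, at 4296 and 4106 CPM. *Dcn* and *Col1a2* were genes of the gate, so their levels describe the rule.

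*Clec3b* itself stood at 3457, 4629, 2887, 3486, 2658 and 3752 CPM in remaining cells. *Pi16*-positive *Clec3b* cells treated the same way held 5173 to 7274 CPM and *Inmt* fibroblasts 1194 to 1464. Remaining cells therefore lay between the other sets in every library, an order that the rule favours. *Dcn* was at 14928, 18698, 11091, 14877, 7037 and 12266 CPM. *Inmt* fibroblasts had 1752 to 3131 CPM of it, below every library of remaining cells. *Serping1*, which the rule did not use, was at 2421, 3623, 2991, 3192, 2964 and 2952 CPM. *Pi16*-positive cells ranged from 3744 to 4439 CPM, above all 6 values, although without likely doublets their lowest library (3787 CPM) fell under the 3805 CPM of remaining cells in control library 2, and *Inmt* fibroblasts from 2403 to 2810, overlapping only control library 1. *Gsn* ranged from 19245 to 33066 CPM, overlapping the 22529 to 28810 CPM of *Inmt* fibroblasts. In all *Pi16*-positive cells the 4 fixed markers summed to 57424 to 69793 CPM by library, above the 31904 to 55251 CPM of remaining cells. Pooled over libraries, *Gsn* was at 26082 CPM in remaining cells and 36452 CPM in all *Pi16*-positive cells.

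**Figure D3:**
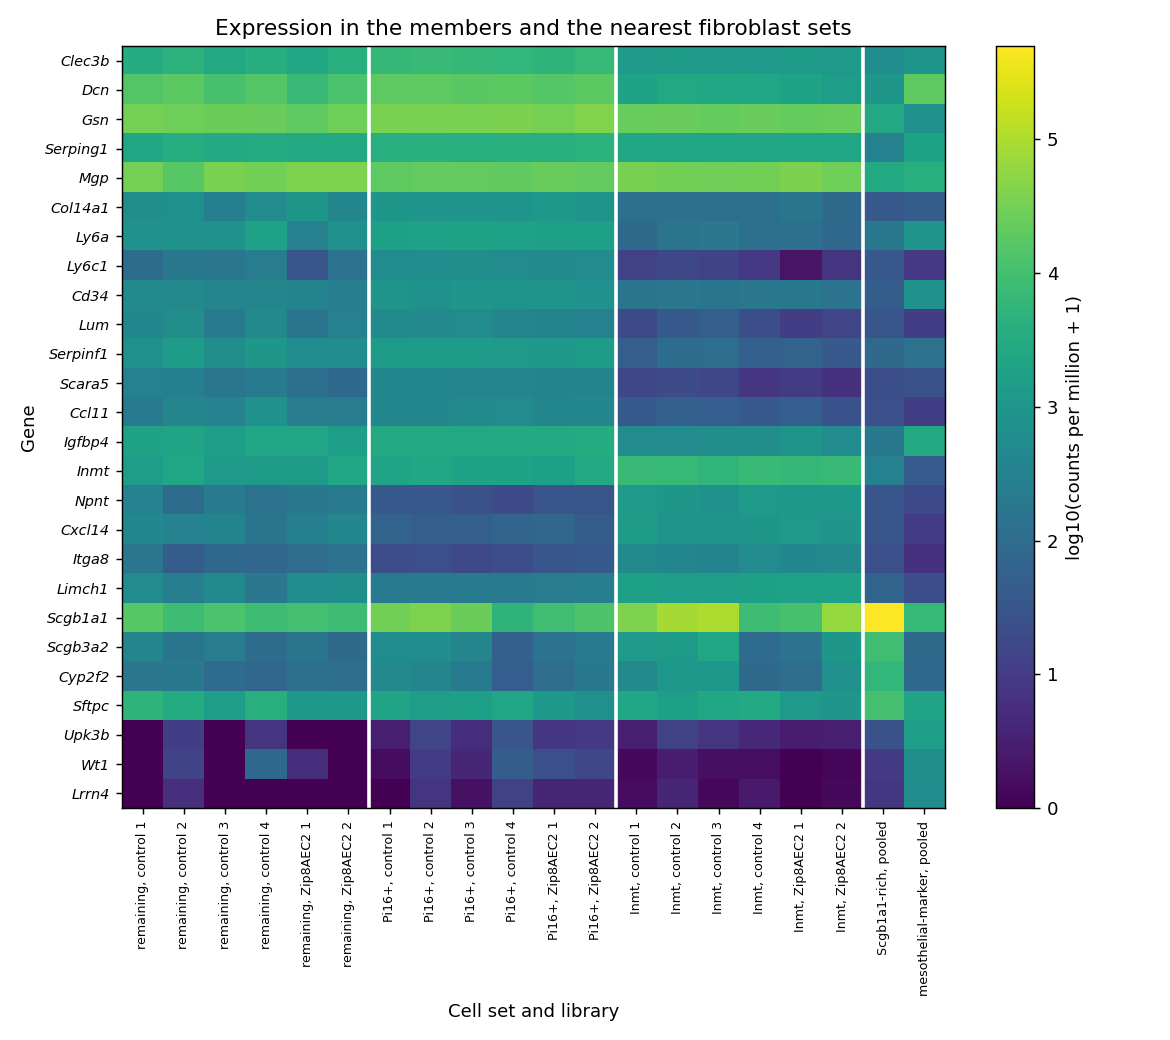
Heat map of log10(CPM + 1) for marker and named genes (rows) in remaining cells, all *Pi16*-positive *Clec3b* cells and all *Inmt* fibroblasts of each library, and in *Scgb1a1*-rich and mesothelial-marker members pooled over libraries (columns). *Npnt* and *Cxcl14* of remaining cells lie between the other fibroblast sets, and *Upk3b* is at 0 in remaining cells of 4 libraries.

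Of 15 fixed adventitial markers, 14 had UMIs in remaining cells, all but *Pi16*. Their summed level was 6797, 7930, 6192, 9069, 7631 and 6274 CPM, led by *Igfbp4*. *Pi16*-positive cells and *Inmt* fibroblasts are whole sets in this paragraph, with *Scgb1a1*-rich and mesothelial-marker cells left in. *Scgb1a1* took 2.72% and 6.11% of their pooled UMIs, against 0.939% in remaining cells. Pooled over libraries and with *Pi16* itself left out, the 14 adventitial genes summed to 7707 CPM in remaining cells, 12488 in *Pi16*-positive cells and 2844 in *Inmt* fibroblasts. The 12 alveolar fibroblast markers summed to 3844 CPM against 4108 and 12017, of which *Inmt*, a gene of the rule, made up 1796, 2237 and 6760. The other 11 alveolar markers summed to 2048, 1871 and 5257 CPM. By library the 11 genes were at 1699 to 2771 CPM in remaining cells, overlapping the 1696 to 1992 CPM of *Pi16*-positive cells and below the 4580 to 5893 CPM of *Inmt* fibroblasts. AEC2 markers, led by *Sftpc*, summed to 6460, 3833, 1944, 4894, 1676 and 1711 CPM in remaining cells, with *Lamp3* at 0 by the gate, and to 1183 to 3016 CPM in *Pi16*-positive cells. Markers of type 1 alveolar cells, led by *Ager*, stood at 2715 CPM in control library 3 and at 49.6 to 117 CPM elsewhere. Smooth muscle markers, led by *Acta2*, summed to 531, 151, 972, 176, 153 and 646 CPM, against 100.4 to 120 CPM in *Pi16*-positive cells. Without *Acta2* the other 6 summed to 220, 42.3, 658, 88.2, 76.6 and 276 CPM, against 46.6 to 75.4 CPM, with overlap. Macrophage markers summed to at most 33.1 CPM in any library of remaining cells, with *Ptprc*, *Marco*, *C1qb* and *C1qc* at 0. Erythroid genes were uneven, at 1472 CPM in control library 2 and 3398 in control library 4 but at most 90.6 elsewhere.

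Likely doublets, barcodes that may hold 2 cells, made up 50 of the 313 remaining cells (16.0%), against 347 of 4308 *Pi16*-positive cells (8.05%) and 187 of 2770 *Inmt* fibroblasts (6.75%). Control library 2 held 38 of the 50, and without it the shares were 6.59%, 4.57% and 4.01%. By library they were 3.85%, 29.0%, 16.7%, 7.35%, 0% and 3.33% in remaining cells and 4.61%, 14.98%, 6.46%, 4.28%, 3.72% and 0.707% in *Pi16*-positive cells, so the order was reversed in control library 1 and Zip8AEC2 library 1. The number called per library was fixed in advance, at 0.8% per 1000 deposited barcodes. It came to 11.7%, 16.0%, 14.2%, 11.9%, 11.2% and 5.90% of kept barcodes. Remaining cells exceeded these rates only in control libraries 2 and 3, and *Pi16*-positive cells lay below them in every library. With likely doublets left out, a choice made after seeing the data, type 1 alveolar markers in control library 3 fell to 36.3 CPM and smooth muscle markers there to 84.8 CPM. The adventitial sum was then 6313 to 9211 CPM and the alveolar sum 2972 to 5064 CPM by library.

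Beside *Pi16*-positive cells, remaining cells had higher levels of *Npnt* and *Cxcl14*, which were among the genes with the largest ratios of the same sign in all libraries. The rule for choosing members forms this contrast, so it is a description without a test. Among 3033 genes at 50 CPM or more in either set, 179 were higher and 373 lower in all 6 libraries. *Npnt* (nephronectin, a basement membrane ligand of integrin α8) was at 337, 105, 239, 137, 194 and 237 CPM against 21.4 to 39.3, a median log2 ratio of 2.49. The chemokine gene *Cxcl14* was at 453, 339, 374, 154, 284 and 436 CPM against 47.8 to 77.6. Neither gene overlapped between the sets, and in *Inmt* fibroblasts both were higher still, at 914 to 1294 and 983 to 1428 CPM. Without likely doublets *Npnt* was at 94.7 to 364 CPM in remaining cells against 20.3 to 31.9, while *Cxcl14* in control library 3 fell to 72.6 CPM, within reach of the 47.2 to 76.6 CPM of *Pi16*-positive cells.

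The other genes on the higher side included *Itga8* (integrin α8, the receptor of nephronectin; median log2 ratio 1.56), *Mme* (the peptidase neprilysin; 1.58), *Cd82* (1.72), the matrix gene *Spon1* (1.57) and *Acta2* (smooth muscle actin; 1.57). *Acta2* ranged from 76.6 to 370 CPM over the libraries of remaining cells and was at 0 in control library 3 without likely doublets. Of the 10 genes with the largest ratios on the higher side, the other 9 stayed higher in all 6 libraries without likely doublets, as the 10 on the lower side stayed lower. The lower side held adventitial markers of the fixed list, *Ly6c1* (−2.01), *Cd248* (endosialin; −1.84), *Sema3c* (a secreted semaphorin; −1.98) and *Anxa3* (−2.05). It also held the Wnt antagonist *Sfrp4* (−2.51) and the scavenging chemokine receptor *Ackr3* (−2.11). *Sfrp4* had no UMI in remaining cells of control library 1 and Zip8AEC2 library 1 and was at 103 to 201 CPM in *Pi16*-positive cells.

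In deep cells, *Npnt* and *Ly6c1* also lay apart between the sets. At 8000 or more UMIs, *Npnt* was at 108, 77.7, 282, 51.7, 186 and 318 CPM in remaining cells and 23.5 to 36.7 in *Pi16*-positive cells. *Ly6c1* (a small surface antigen) was at 0, 137, 44.5, 327, 13.8 and 97.3 CPM against 570 to 731. *Il33*, the alarmin cytokine, was at 0, 64.7, 14.8, 86.1, 27.6 and 8.84 CPM against 151 to 255. Groups did not overlap for any of these 3 genes, of which *Il33* was chosen from the values of deep cells, and control library 1 held only 2 such cells. *Cxcl14* was at 0, 430, 726, 51.7, 338 and 637 CPM against 46.6 to 72.2, so control libraries 1 and 4 did not show its higher level. *Itga8* was at 49.2 to 168 CPM against 17.1 to 37.8, and *Acta2* at 89.6 to 1133 CPM against at most 76.6, both without overlap. Of the 71 deep cells 6 were likely doublets, 3 of them among the 5 of control library 3. Without likely doublets *Npnt*, *Ly6c1*, *Il33* and *Itga8* still did not overlap between the sets, with *Npnt* at 59.1 to 448 CPM against 22.7 to 31.9, whereas *Acta2* was at 0 in control library 3 and *Cxcl14* fell there to 187 CPM. In all, 117 genes were higher and 216 lower in every library out of 3228.

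Detection at equal depth followed. After each cell was thinned to 2000 UMIs (116 of 313 remaining cells and 348 of 4308 *Pi16*-positive cells were shallower and left out), *Npnt* was detected in 21.4%, 9.38%, 18.8%, 18.5%, 29.6% and 22.7% of remaining cells. These percentages rest on only 14, 64, 16, 54, 27 and 22 remaining cells. The other fibroblast sets were whole here, with neither *Scgb1a1*-rich nor mesothelial-marker cells left out. *Npnt* was detected in 3.27 to 7.09% of *Pi16*-positive cells, in 63.3 to 78.8% of *Inmt* fibroblasts, and in 4.52 to 11.9% of cells of the endothelial gate, which served as background. Remaining cells exceeded *Pi16*-positive cells in every library. *Lum*, the proteoglycan lumican, was found in 22.2 to 42.2% of remaining cells, 30.2 to 41.8% of *Pi16*-positive cells, 1.52 to 5.03% of *Inmt* fibroblasts and 0.541 to 1.87% of endothelial-gate cells. For *Lum*, remaining and *Pi16*-positive cells overlapped, and *Inmt* fibroblasts were far below both but above the endothelial-gate cells of their own library in all 6.

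**Figure D4:**
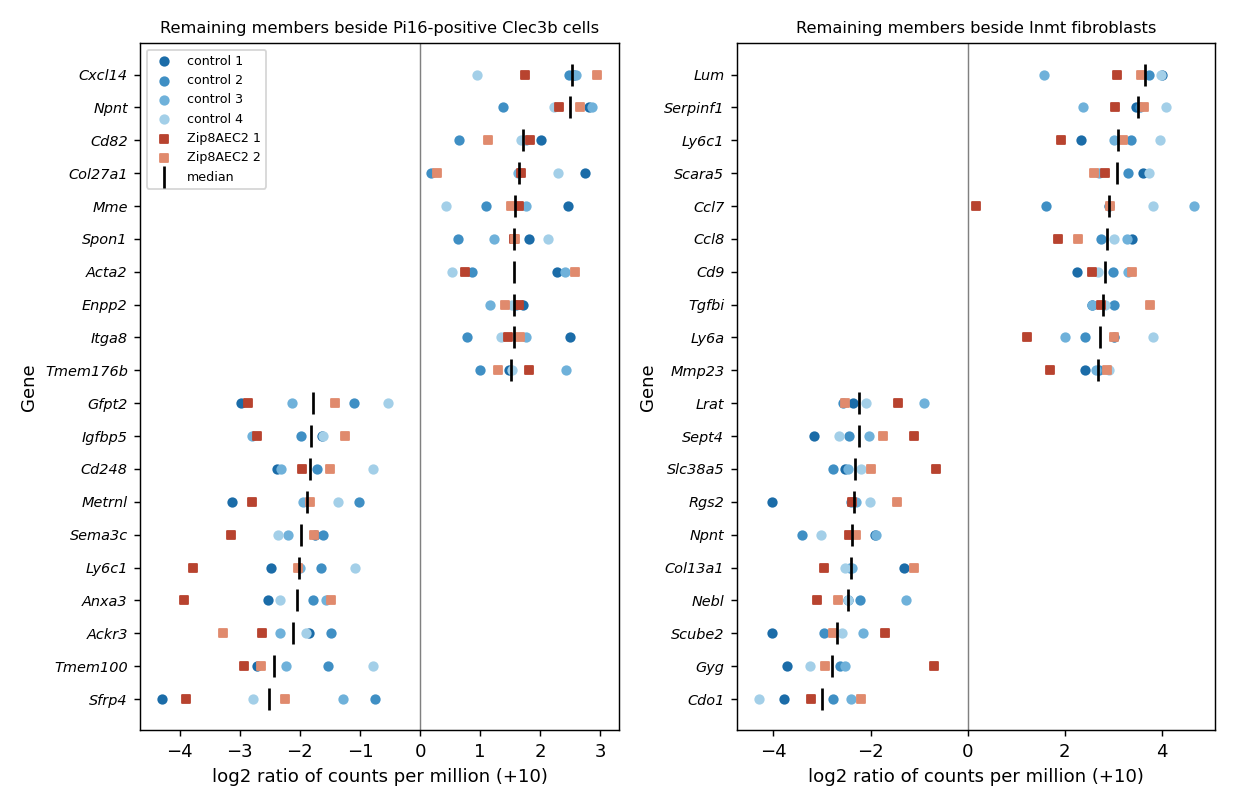
Log2 ratios of CPM, with 10 CPM added to each value, of remaining cells to *Pi16*-positive *Clec3b* cells (left) and to *Inmt* fibroblasts (right), *Scgb1a1*-rich and mesothelial-marker cells being left out of every set; points are libraries and black bars their medians, for 10 genes in each direction. *Npnt* is on the higher side at left (median 2.49) and on the lower side at right (median −2.37).

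Beside *Inmt* fibroblasts, remaining cells were higher in all libraries for 301 of 3239 genes and lower for 596. *Lum* was at 453, 640, 209, 470, 158 and 309 CPM against 9.79 to 63.5, a median log2 ratio of 3.65. *Serpinf1* (pigment epithelium-derived factor, an angiogenesis inhibitor; 3.51), the ferritin receptor gene *Scara5* (3.06), *Ly6a* (2.72), the tetraspanin gene *Cd9* (2.84) and *Tgfbi* (2.78) followed. The chemokine gene *Ccl8* was at 117, 74.5, 105, 81.7, 40.5 and 38.6 CPM against 0 to 3.91. Remaining cells were lower in *Cdo1* (cysteine dioxygenase), at 6.53 to 55.2 CPM against 211 to 316. They were also lower in the transmembrane collagen gene *Col13a1* (−2.39), *Npnt* (−2.37), *Slc38a5* (a glutamine transporter; −2.33) and *Lrat*, which esterifies retinol (−2.23). With all 619 members in place of remaining cells, the first genes on the higher side were *Upk3b*, *Wt1* and *Lrrn4*, with median log2 ratios of 3.23, 3.03 and 2.93.

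The share of members among gated cells did not differ detectably between genotypes. It was 1.94% (95% Wilson interval 1.43 to 2.63), 6.64% (5.94 to 7.42), 3.43% (2.74 to 4.30) and 7.31% (6.25 to 8.54) in controls, and 6.34% (4.69 to 8.52) and 2.47% (1.75 to 3.46) in Zip8AEC2 libraries. Intervals cover counting error only, and the libraries of each genotype spread beyond them. Controls averaged 4.83% ± 2.56 (SD, n = 4) and Zip8AEC2 libraries 4.40% ± 2.74 (SD, n = 2), with an exact two-sided permutation p of 0.733 for the difference over the 15 possible splits, the smallest attainable p being 0.0667. The groups overlapped. Without the other kinds, remaining cells were 3.01% ± 1.43 and 4.12% ± 2.33, the opposite order (exact permutation p = 0.467). *Pi16* was at 0 in 4.20%, 16.6%, 8.77%, 16.8%, 17.5% and 10.2% of *Clec3b* cells.

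Transcripts of the targeted gene were too rare in these cells to compare. *Slc39a8* (mm10, chr3:135825279-135888572, plus strand) was at 11.4, 19.2, 34.7, 11.6, 16.0 and 9.92 CPM in members, from 64 UMIs in all. These cells were not the target of the deletion, and a 3′ count need not change when an upstream exon is removed. *Sftpc*, the surfactant protein C gene of AEC2s, was at 4888, 6210, 9197, 3992, 1266 and 1067 CPM. Both Zip8AEC2 libraries were below all controls. The log2 fold change was −2.96 (SE 0.55), with an adjusted p of 0.29 in edgeR's quasi-likelihood test (Benjamini-Hochberg). The call depended on the setting, with adjusted p-values from 1.9e-05 to 0.78 over the alternatives. It passed the threshold with DESeq2 (adjusted p 1.9e-05), with no filter on low counts (0.029 by edgeR), without control library 4 (0.0023) and with the replicate block (2.1e-05). Without shared barcodes the log2 fold change was −1.17 (adjusted p 0.44 by edgeR), and in remaining cells −1.68 (0.29). The same order held for AEC2s themselves, at 146254, 151508, 166777, 172449, 87564 and 88672 CPM, and in remaining cells *Sftpc* was at 5127, 3188, 1578, 3901, 1108 and 1120 CPM. The part of free epithelial RNA in the difference was not tested.

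No gene passed the adjusted threshold for genotype in the sums of all members. Of 5840 genes tested, 0 (0.0%) had an adjusted p below 0.05 by edgeR's quasi-likelihood test. At an unadjusted p below 0.05, 318 genes (5.45%) were higher and 284 (4.86%) lower in Zip8AEC2 libraries. Zip8AEC2 libraries lay above all controls for 724 genes (12.4%) and below them for 632 (10.8%). The replicate block gave 211 genes (1 residual degree of freedom), no filter on low counts 28 and DESeq2 67, and without control library 4 edgeR called 105, led by the club-cell genes *Scgb1a1*, *Lypd2*, *Tff2*, *Wfdc2*, *Cyp2f2* and *Scgb3a2*. Libraries here are the replicates. Nothing states that each came from a separate animal, so the p-values measure the spread between libraries, which may be technical.

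Remaining cells alone gave 0 of 3458 genes (0.0%) at an adjusted p below 0.05. At an unadjusted p below 0.05, 101 genes (2.92%) were higher and 112 (3.24%) lower. The libraries lay apart for 269 genes (7.78%) on the higher side and 227 (6.56%) on the lower. Depth moved with genotype in these cells, with medians of 2050, 1988, 2211, 3417, 7733 and 4712 UMIs. Its part in the values below was not tested.

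Fibrillar collagen genes had a higher median fold change over all members than in remaining cells. The gate genes *Col1a1* and *Col1a2* were left out of these counts. Over all members the median log2 fold change of the other 10 tested genes was 1.00, against −0.03 over all genes, and 6 lay apart on the higher side (*Col3a1*, *Col5a1*, *Col5a2*, *Col6a1*, *Col6a2* and *Col6a3*; 12.4% of all genes did), while 0 passed the adjusted threshold. In remaining cells, the median of 11 tested genes was 0.36 against −0.00 over all genes, and 1 lay apart on the higher side, *Col3a1*, where 7.78% of all genes did. The cause of the shift was not tested, since the number of cells and the genes tested changed too. *Col3a1* was at 2240, 3718, 2543, 3064, 8339 and 4734 CPM in remaining cells. Both Zip8AEC2 libraries exceeded all controls, with a log2 fold change of 1.11 (SE 0.26) and an adjusted p of 0.29 by edgeR's quasi-likelihood test. *Col1a1* was at 1748, 3278, 1728, 2349, 4622 and 3382 CPM, control library 2 being close to Zip8AEC2 library 2. In *Pi16*-positive cells the values of *Col3a1*, 2412 to 4231 CPM in controls and 3862 and 3398 in Zip8AEC2 libraries, overlapped.

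Other matrix lists also had medians nearer to 0 in remaining cells. Elastic fibre genes had a median log2 fold change of 0.84 over all members (8 of 15 apart on the higher side, 1 on the lower) and 0.39 in remaining cells (0 of 16 higher, 2 lower). Basement membrane genes had medians of 0.79 (6 of 12 higher) and 0.16 (1 of 11), and small leucine-rich proteoglycans without the gate gene *Dcn* 0.62 (2 of 7) and 0.15 (0 of 7). Over all genes, 12.4% lay apart on the higher side and 10.8% on the lower in members, and 7.78% and 6.56% in remaining cells. At an unadjusted p below 0.05, 5 of 16 elastic fibre genes were higher and 1 lower in remaining cells, beside 2.92% and 3.24% of all genes. *Eln*, the elastin gene, was at 1165, 645, 838, 689, 3608 and 673 CPM in remaining cells. Its high value belonged to Zip8AEC2 library 1 alone, and Zip8AEC2 library 2 lay within the controls. *Fbn1*, the fibrillin gene, was at 151, 205, 169, 233, 646 and 546 CPM in all members, with no overlap, and at 609, 342, 479, 542, 847 and 585 CPM in remaining cells, with overlap.

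**Figure D5:**
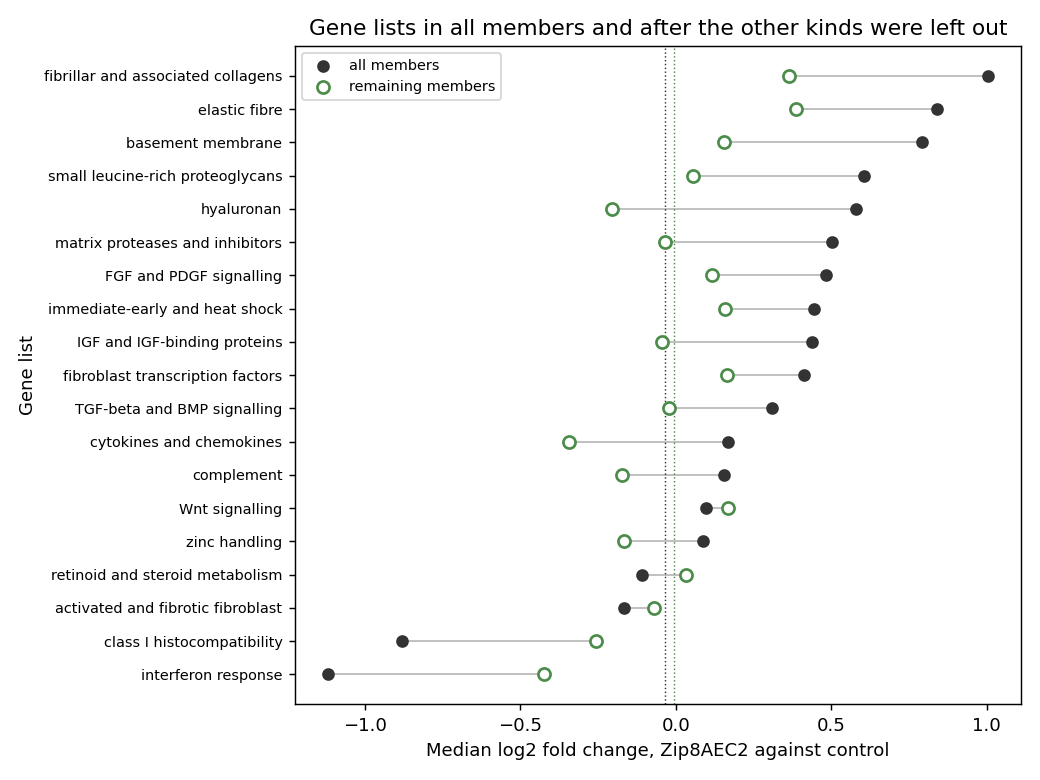
Median log2 fold change, Zip8AEC2 against control (x axis), of each gene list with at least 4 tested genes in both sets (rows), over all members (filled points) and remaining cells (open points), with dotted lines at the medians over all genes tested; genes of the gate are included here. Fibrillar collagens lie at 1.00 and 0.36 and class I histocompatibility genes at −0.88 and −0.26.

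Genes of antigen presentation and interferon response had medians below 0, with no gene of either list apart or at an unadjusted p below 0.05 in all members by edgeR's test. Class I histocompatibility genes had a median of −0.88 over all members and −0.26 in remaining cells, with 0 of 14 and 0 of 10 apart. Interferon response genes had medians of −1.12 (0 of 17 apart) and −0.42 (1 of 10 apart, *Irf1*, higher). The medians over all genes were −0.03 and −0.00, and 7.78% of all genes lay apart on the higher side in remaining cells. At an unadjusted p below 0.05, *Ifit1* and *Ifit3* were lower and *Irf1* higher in remaining cells, beside 3.24% and 2.92% of all genes. *Ifit1* was at 0, 1.69, 67.3, 385, 9.01 and 0 CPM, so its highest value also belonged to control library 4. *B2m*, the light chain of class I molecules, was at 450, 736, 854, 4041, 1691 and 1255 CPM in all members. Control library 4, which held most mesothelial-marker cells, was the highest, and both Zip8AEC2 libraries were above the other 3 controls. In remaining cells *B2m* ranged from 925 to 1734 CPM and the genotypes overlapped.

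Counts of further lists in remaining cells stand beside the 7.78% of all genes that lay apart on the higher side and the 6.56% on the lower. TGF-β and BMP genes had 3 of 19 on the higher side (*Tgfbr2*, *Bmp4* and *Bmp5*) and 2 on the lower (*Bmp1* and *Gdf10*), with a median of −0.02. Among matrix proteases and their inhibitors, *Mmp2* was on the higher side and the inhibitors *Timp1* and *Timp2* and the serpin family gene *Serpinf1* on the lower, out of 20. Cytokine and chemokine genes had *Cxcl12* and *Il1r1* lower, out of 14 (median −0.34), and insulin-like growth factor genes *Igf2r* and *Igfbp3* higher, out of 8. Fibroblast transcription factors had *Nr2f2* and *Nfib* higher, out of 14. Of activated fibroblast genes 1 of 8, *Thbs1*, was lower, and of zinc handling genes 1 of 4, *Mt1*, was lower. Of the lists of complement (10 tested), Wnt (7), FGF and PDGF (7, without the gate gene *Pdgfra*), hyaluronan (4) and immediate-early and heat shock genes (20), 0 genes lay apart. Among p53 targets 1 of 3, *Phlda3*, was higher, and of proliferation genes 0 passed the filter on low counts. The list of targeted alleles and neighbours had *Sftpc* and its chromosomal neighbour *Bmp1* lower, of 2 tested, and of 2 tested sex-linked genes 0 lay apart.

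Several single genes of remaining cells are given as values, chosen after they were seen for a small p. *Igfbp3* was at 51.8, 120, 59.8, 81.7, 297 and 248 CPM, and *Gfra2*, the receptor gene of neurturin, at 77.7, 28.8, 22.4, 39.2, 162 and 93.8. Zip8AEC2 libraries were above all controls for both. *Nr4a3*, an immediate-early nuclear receptor gene, was at 246, 285, 179, 199, 58.6 and 88.3 CPM, *Thbs1* (thrombospondin 1) at 984, 666, 957, 931, 401 and 469, and *Mt1* (metallothionein 1, a zinc-binding protein) at 854, 1048, 1630, 1170, 94.6 and 706. Zip8AEC2 libraries were below all controls for these 3. The log2 fold changes were 1.60, 1.80, −1.70, −1.07 and −1.61, with adjusted p-values of 0.29, 0.29, 0.29, 0.36 and 0.54 by edgeR's quasi-likelihood test. *Scara5*, higher in the remaining cells than in *Inmt* fibroblasts, was at 324, 281, 172, 216, 117 and 88.3 CPM (log2 fold change −1.30, SE 0.34, adjusted p 0.39 by the same edgeR test). In *Pi16*-positive cells *Scara5* was at 401 to 477 CPM in controls and 355 and 375 in Zip8AEC2 libraries.

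The genotype effect in members was also set against that in *Inmt* fibroblasts of the same libraries. Of 10366 genes, 0 (0.0%) had an adjusted p below 0.05 for the difference by edgeR's quasi-likelihood test, and 793 had an unadjusted p below 0.05. DESeq2 called 23, and edgeR called 34 without control library 4, 240 with no filter on low counts and 7 with thinned cells. In remaining cells the test called 2 genes, the cell cycle genes *Top2a* and *Hist1h2ap*. *Top2a* had no UMI in remaining cells of any control library and was at 4.50 and 77.2 CPM in Zip8AEC2 libraries 1 and 2, from 15 UMIs in all. The call of *Top2a* thus rested on very few transcripts, mostly in Zip8AEC2 library 2. *Hist1h2ap* had a log2 difference of 13.2 and an adjusted p of 0.0024 by the same edgeR test, against 12.8 and 0.027 for *Top2a*. Its values by library are not given here, so no more weight is placed on this call.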

How the data were processed

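Single-cell 3′ libraries of CD45-negative mouse lung cells were deposited as unnormalised UMI counts of 27998 features per barcode, which the authors made with Cell Ranger (3.1.0 in the file headers) on mm10. Whether ambient RNA or doublets were removed before deposit was not stated in the sources used here. Seurat objects of the study were not used here. Cells were selected with fixed UMI thresholds, no clustering was done, and likely doublets were marked with Scrublet (scanpy 1.11.5) and left out only as an alternative. Among the 619 members 72 were marked, 50 of them in the 313 remaining cells.

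Counts were summed per library over the cells of a set. Genotypes were compared with edgeR 4.0.16 (R 4.3.3; filterByExpr, TMM scaling, glmQLFit and glmQLFTest), and p-values were adjusted by Benjamini and Hochberg's method across every tested gene and called at an adjusted p under 0.05. The difference of genotype effects between members and *Inmt* fibroblasts was an interaction term in a model over both sets. The share was compared by an exact permutation test (scipy 1.17.1). "Apart" means that TMM-scaled CPM did not overlap between genotypes. CPM printed are per total UMIs of the set. Log2 ratios between sets used a pseudocount of 10 CPM. DESeq2 1.42.0, other scaling, no filter, stricter cells, thinning to 2000 UMIs, other thresholds, omission of shared barcodes, of doublets and of each library, and a replicate block were alternatives. Fits spanned all genes, those of the gate included. The scripts were tested on simulated data.

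The members, the 23 gene lists (336 of 339 genes in the files) and the 18 marker lists (122 of 126) were chosen with earlier results of these data known. Named genes were those past the adjusted threshold with no overlap (there were 0), the 3 most abundant of each list, the most abundant in members, and those with the largest ratios of the same sign in all libraries; others are said to have been chosen after their values were seen, and genes of lists that lay apart were named by that criterion. The division into kinds was chosen after seeing the data. Coordinates are from GENCODE vM21. The genotype counts of 1 list, which holds a gene not reported here, are left out.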

Additional observations from a re-analysis of the deposited data

Results flagged for a closer look

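Among the 4 control libraries, 1 value stood far from the other 3 by Dixon's ratio (the gap to the nearest value divided by the range) for 6 of 32 quantities checked. For a single quantity chance gives about 1 in 20. The quantities were not independent, *Upk3b* being a gene of the mesothelial criterion, and that criterion was set after seeing the data. The count of 6 therefore cannot be weighed against chance. The percent of members with mesothelial markers had a ratio of 0.947, with 50.7% in control library 4 against 4.11 to 6.60% in the others, and *Upk3b* had 0.884, with 1022 CPM against 82.5 to 192. Control library 4 was also the lowest for the mitochondrial genes *mt-Cytb* (ratio 0.870; 3498 CPM against 5255 to 5517), *mt-Nd2* (0.886; 2265 against 4311 to 4574) and *mt-Nd4* (0.988; 2242 against 3941 to 3962). *Gsn* had a ratio of 0.888, with control library 2 the highest at 14324 CPM against 7799 to 8531. No test was made of what sets these libraries apart.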

How the results depend on the processing

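The count of 0 genes called in members became 67 with DESeq2 (11 higher, 56 lower), 28 with no filter on low counts and 211 with the replicate block (29 higher, 182 lower; 1 residual degree of freedom), and 0 to 105 when 1 library was left out. The 105 arose without control library 4 (16 higher, 89 lower) and shared 54 genes with the DESeq2 calls. The other settings called 0 genes, among them RLE and total-UMI scaling, stricter cells, thinning and the omission of shared barcodes, doublets or either kind. Total-UMI scaling moved the median log2 fold change of all genes from −0.03 to 0.40 and that of *Bmp1* from −0.30 to 0.13. For the difference from *Inmt* fibroblasts, 0 genes became 23 with DESeq2, 240 with no filter, 7 with thinned cells, 2 in remaining cells with or without shared barcodes, and 0 to 34 when 1 library was left out (34 without control library 4). The difference in share of −0.43 percentage points became 0.83 with stricter cells, 0.49 without shared barcodes, 0.98 at 5 or more *Clec3b* UMIs, 0.64 without *Scgb1a1*-rich cells, 1.11 without both kinds and 0.11 with the replicate block. It was −2.50 in cells thinned to 2000 UMIs with the threshold also lowered to 1 or more *Clec3b* UMIs. It was −1.72 at 2 or more *Clec3b* UMIs, −0.92 as a share of kept barcodes and −0.23 without likely doublets. The difference ranged from −2.37 to 1.51 when 1 library was left out. The cause of these shifts was not tested. Deviations of same-numbered libraries correlated at −0.03 and 0.13, and the numbers, which no label ties to a shared source, were taken as names only. With 32 to 288 cells per library, genes of few UMIs could not be compared.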
